A study of Mus musculus with 29 samples.

Results

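The HSP90 and HSP70 chaperone set comprised 10 genes chosen by name out of the 54838 mouse genes in the deposited table, and all 10 were found. It held the cytosolic HSP90 pair Hsp90aa1 and Hsp90ab1, the inducible cytosolic HSP70 pair Hspa1a and Hspa1b, the constitutive cytosolic HSP70 Hspa8 and its HSP110 relative Hsph1. The endoplasmic reticulum (ER) was represented by Hsp90b1 and Hspa5, and the mitochondrion by the HSP70 Hspa9 and the HSP60 Hspd1. Transcripts were measured by SMART-seq2, a method that amplifies full-length cDNA from 1 cell in its own tube. The cells were labelled as T cells from the spleen of OT-1 mice, a strain whose transgenic T cell receptor recognises a peptide of ovalbumin (OVA). The OVA group was 21 cells that had interacted for 3 h with antigen-presenting cells (APC) presenting OVA. The nothing group was 8 cells that had interacted for 3 h with APC presenting nothing. Both groups are labelled with the strain OT-1, and the labels give no age, sex, animal, culture or batch. Cells are numbered within their group, and a number has no meaning beyond a name.

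Chaperones bind proteins that are not yet folded, or that have lost their fold, and release them in cycles driven by ATP. HSP70 acts early on short exposed stretches, with HSP110 as its nucleotide exchange factor, while HSP90 acts late on nearly folded clients such as kinases and receptors. In T cells the cytosolic HSP90 clients include the kinase Lck, and in the ER Hspa5 and Hsp90b1 fold secreted and membrane proteins.

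Because the labels name no animal or culture, each group counted as 1 sample and no test between groups was made. The genes were picked after their levels in these cells were known, so the levels below are a description. Values are TPM, a transcript abundance corrected for length and scaled to a fixed total per library. A gene was called detected in a cell at a TPM of at least 1. A difference is the mean of log2(TPM + 1) over the OVA cells minus that over the nothing cells. Differences of genes at low levels are understated on it. Read numbers cannot be recovered from TPM, so the depth is unknown, and a gene at 0 is described as listed at 0.

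The libraries varied widely. Synthetic spike-in RNA took 5.58% to 97.7% of TPM in OVA cells (median 84.9%) and 14.8% to 99.4% in nothing cells (median 87.8%). Genes detected ranged from 233 to 4180 per OVA cell (median 855) and from 92 to 6385 per nothing cell (median 795). Nothing cells 1, 2, 3 and 6 had 92 to 373 genes each, so a chaperone listed at 0 says little there. At least 1 of 14 T cell markers was detected in 10 OVA cells and 2 nothing cells, with summed levels of 0 to 3387 TPM and 0 to 78.7 TPM. Of these 14 markers 7 were detected among the OVA cells and 4 among the nothing cells. T cell receptor constant transcripts were detected in OVA cells 5, 9, 13 and 16 and in none of the 8 nothing cells (a count of 0, for which the upper limit is 37.5%). Cd3e, Cd247 and Cd4 were detected in nothing cells only, at 43.4 TPM in cell 5 and at 26.7 and 30.5 TPM in cell 4. Cd3g was detected in 1 cell of each group. Cd8a, a chain of the coreceptor of OT-1 cells, was listed at 0 in all 29 cells. Cd8b1, its other chain, was detected only in OVA cell 13, at 136 TPM. Most libraries therefore did not show the markers of their labelled cell type. Of 9 neutrophil markers 8 were detected among the OVA cells and 5 among the nothing cells, and their summed level ran from 0 to 20001 TPM (OVA cell 8) and from 0 to 3924 TPM (nothing cell 4). Markers of dendritic cells or macrophages summed to 0 to 427 TPM in OVA cells and 0 to 102 TPM in nothing cells. The 427 TPM was Lyz2 alone in OVA cell 18. Of the 18 markers in this list 4 were detected among the OVA cells and 6 among the nothing cells. The part of these other cell types in the chaperone levels was not tested.

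All 10 chaperones had a higher mean in the OVA cells than in the nothing cells, as did 56.4% of the 3717 genes detected in at least 3 cells (the kept genes). Of the 10, 4 were higher by at least 1 on the log2 scale, against 9.31% of the same genes and 0.631% of all 54838. None was lower by that size, against 6.62%. The median difference over the members was 0.97, and over all 3717 genes it was 0.10. Since the members were chosen on this contrast, these counts describe the choice. Of the members, 6 were detected in no nothing cell, as were 25.3% of the 3717 genes, so they met the 3-cell minimum through OVA cells alone. An OVA cell had 3.24 ± 2.83 of the 10 genes detected (SD over 21 cells, median 3), and a nothing cell had 0.750 ± 1.39 (SD over 8 cells).

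**Figure D1:**
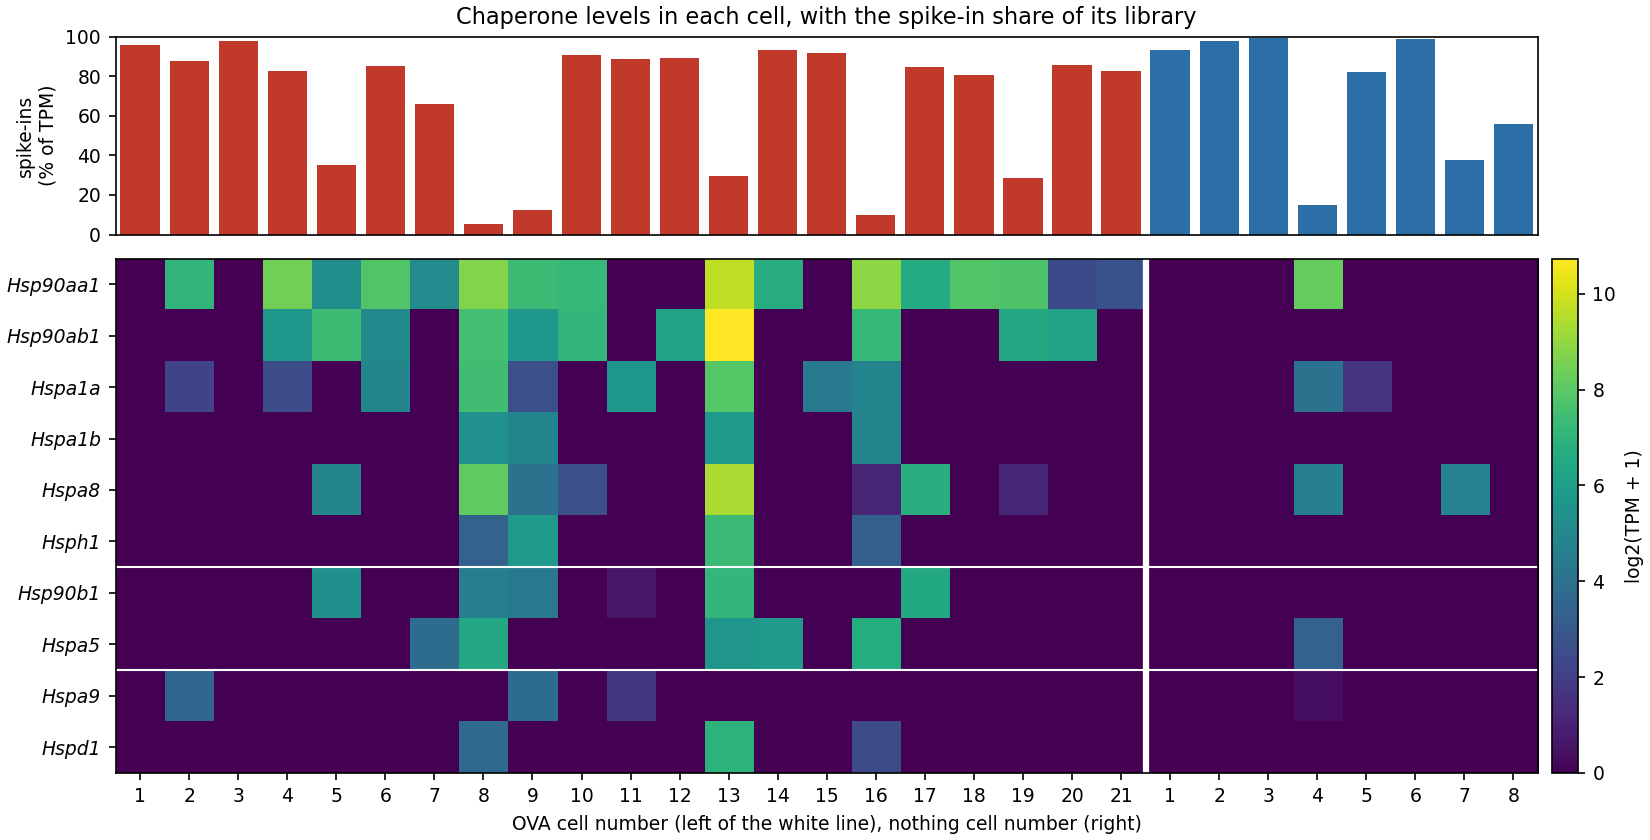
Level of the 10 chaperones in each of the 29 cells as log2(TPM + 1), by gene (rows) and cell (columns), with the spike-in share of each library in percent of TPM as bars above. OVA cells 8, 9, 13 and 16 have 8 or 9 genes detected, and nothing cell 4 has 4.

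The detections were concentrated in a few cells. OVA cells 8 and 13 had 9 of the 10 genes detected and OVA cells 9 and 16 had 8. The other 15 OVA cells with any member had 1 to 4, and OVA cells 1 and 3 had none. Among the nothing cells, cell 4 had 4 members, cells 5 and 7 had 1 each, and the other 5 had none. Spike-in shares of OVA cells 8, 9, 13 and 16 were 5.58%, 12.6%, 29.4% and 9.88%. Over the 21 OVA cells the Spearman rho between spike-in share and members detected was -0.75, and over all 29 cells it was -0.73. Both measures come from the same library. OVA cell 8 carried the highest neutrophil marker level and no T cell receptor constant transcript, whereas OVA cells 9, 13 and 16 carried such transcripts.

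Hsp90aa1 (chromosome 12, 110690605 to 110702728, minus strand, GRCm38), the stress-inducible cytosolic HSP90 alpha, had the highest mean level of the 10. Its TPM in OVA cells ran from 0 through a median of 102 to 845 in OVA cell 13. It was detected in 16 of 21 OVA cells. Among the nothing cells it was at 293 TPM in cell 4 and listed at 0 in the other 7, so the groups overlapped. The OVA cells had a mean log2 level of 5.23 ± 3.49 and the nothing cells one of 1.02 ± 2.90 (SD over cells). That difference of 4.20, as deposited, was 5th in size among the 3717 genes and larger than either SD. With near-identical copies of the gene added, as described below, the difference was 3.19. It was then smaller than the SD over OVA cells (3.45) and that over nothing cells (3.26). Among nuclear genes of its own library Hsp90aa1 ranked between 17 and 1039 (median 59) in the 16 OVA cells, and it ranked 57 of 6360 in nothing cell 4.

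Hsp90ab1 (chromosome 17, 45567775 to 45573271, minus strand), the constitutive HSP90 beta, was detected in 11 of 21 OVA cells (52.4%, exact Clopper-Pearson 95% interval 29.8% to 74.3%). Its OVA values ran from 0 through a median of 33.8 TPM to 1703 TPM, again in OVA cell 13. The next highest was 182 TPM in OVA cell 8. All 8 nothing cells had it listed at 0, with the same upper limit of 37.5%. Intervals and limits cover counting error only. The difference was 3.58, 14th in size, with an SD over OVA cells of 3.66. Among the 3717 genes 8 (0.215%), Hsp90ab1 included, were detected in no nothing cell and in at least as many OVA cells. Both limits were set from the values of Hsp90ab1 itself, so this share describes the choice of limits.

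The ratio of the pair within a cell does not depend on how the library is scaled. It does depend on the near-identical copies described below, which are left out here. With copies added, OVA cell 13 had 1081 TPM of Hsp90aa1 and 1709 TPM of Hsp90ab1. Both genes were detected in 10 OVA cells, Hsp90aa1 alone in 6, Hsp90ab1 alone in 1 (OVA cell 12) and neither in 4. Hsp90aa1 was the higher of the pair in 7 of the 10 cells with both. Its share of their summed TPM had a median of 76.9% over 17 OVA cells and ran from 0% to 100%. The cells with T cell receptor transcripts fell on both sides, with shares of 18.8% in OVA cell 5, 76.2% in cell 9, 33.2% in cell 13 and 76.9% in cell 16. In OVA cell 20 the share was 5.57%. So the cell with the highest level of both genes carried more of the constitutive form.

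**Figure D2:**
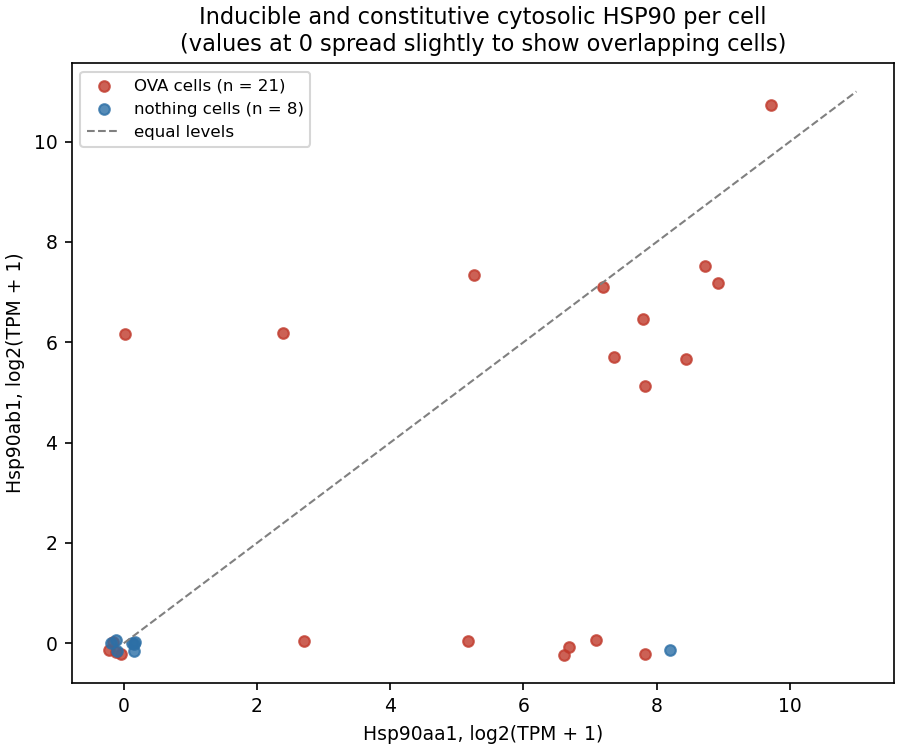
Hsp90ab1 level against Hsp90aa1 level in each cell, both as log2(TPM + 1), for 21 OVA cells (red) and 8 nothing cells (blue), with a dashed line of equal levels. Of the 10 OVA cells with both genes, 7 lie below the line.

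The last coding bases of the members show how the cytosolic and ER forms differ, and are printed for that reason. They were read from the GENCODE M21 transcripts (GRCm38), 5′ to 3′, with the last 4 codons before the stop in capitals. In cytosolic HSP90 and HSP70 these codons encode the C-terminal motif that docks cochaperones, and in the ER forms they encode the retrieval signal that keeps the protein in the ER.
Hsp90aa1: gacgacacatcacgcatgGAAGAAGTAGAC
Hsp90ab1: gaggatgcctcgcgcatgGAAGAGGTGGAT
Hspa1a: ggctcaggacccaccatcGAGGAGGTGGAT
Hspa8: tcttcaggccccaccattGAAGAGGTGGAT
Hsp90b1: gaaaaggaatctacagagAAGGATGAATTG
Hspa5: gaagaggatacatcagaaAAAGATGAGTTG
Hspa1b has the same 30 bases as Hspa1a. Over aligned coding bases Hsp90aa1 and Hsp90ab1 were 76.6% identical, Hspa1a and Hspa8 74.7%, and Hspa8 and Hspa5 67.7%.

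Hspa1a (chromosome 17, 34969190 to 34972156) and Hspa1b (chromosome 17, 34956436 to 34959238) are neighbouring single-exon genes for the heat-inducible HSP70. Their coding sequences differed at 8 of 1923 aligned bases, so the split of reads between them is uncertain. Hspa1a was detected in 9 of 21 OVA cells, with a median of 0, 173 TPM in OVA cell 8 and a highest value of 238 TPM in OVA cell 13. In nothing cells it was at 15.2 TPM in cell 4, 2.1 TPM in cell 5 and listed at 0 in the other 6, so the groups overlapped. Its difference was 1.31, within the SD over OVA cells of 2.73. Hspa1b was detected in 4 OVA cells, all of them with Hspa1a, at 52.6 TPM in cell 13, 42.3 TPM in cell 8, 28.9 TPM in cell 16 and 28.0 TPM in cell 9. It was listed at 0 in the nothing cells, and the difference was 0.997.

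Heat shock elements are short inverted repeats bound by heat shock factors. The core GAANNTTC was searched on both strands in the 250 bases before the start of each RefSeq gene (GRCm38.p6), where 7.73% of 27025 genes (6.69% of 32851 promoters) hold it. A promoter entry was matched for 6 of the 10 members. Hsp90aa1, Hsp90ab1, Hspa8 and Hspa9 had no entry, so they were not searched. Of the 6 members searched, 3 held the core: Hspa1a, Hspa1b and Hspd1. Hspd1 has 2 promoter entries, of which 1 holds it. The entry with the core lies inside the GENCODE gene, and the entry directly before the GENCODE start does not hold it. The windows below are on the minus strand, at chr17:34972242-34972271 for Hspa1a and chr1:55088053-55088082 for Hspd1, with the core in capitals.
Hspa1a: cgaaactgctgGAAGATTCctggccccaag
Hspd1: ggggccttccgGAAGGTTCtagaacggacc
The Hspa1b window (chr17:34959324-34959353) has the same bases as that of Hspa1a, and the 250-base upstream sequences of the pair differ at 3 positions. In both the core lies 104 to 97 bases before the start. A match is a description of the letters and shows no binding. Of these genes Hspa1a was detected in 9 OVA cells, Hspa1b in 4 and Hspd1 in 3.

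Hspa8 (chromosome 9, 40800984 to 40810087, plus strand), the constitutive cytosolic HSP70, was detected in 8 OVA cells and 2 nothing cells. Its OVA values had a median of 0, with 671 TPM in OVA cell 13, 275 TPM in cell 8, 108 TPM in cell 17 and 28.8 TPM or less in the other 5. The nothing cells with it, cells 4 and 7, had 24.8 and 25.8 TPM and lay within the OVA range. The difference of 0.64 was well within the SD of 3.00 over OVA cells and rested on single cells. It was 0.26 without OVA cell 13, 0.32 without OVA cell 8, 0.39 without OVA cell 17, and 1.14 or 1.15 without nothing cell 4 or 7. It turned to -0.14 when the 9 libraries over 90% spike-ins were left out. All 8 OVA cells with Hspa8 also had Hsp90aa1.

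Hsph1 (chromosome 5, 149614287 to 149636376), the HSP110 that exchanges the nucleotide of HSP70, was detected in OVA cells 8, 9, 13 and 16 and nowhere else, the same 4 cells as Hspa1b. Its values were 9.75, 52.9, 158 and 8.75 TPM in that order. The difference was 0.94 with an SD over OVA cells of 2.13, and 0.62 without OVA cell 13.

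**Figure D3:**
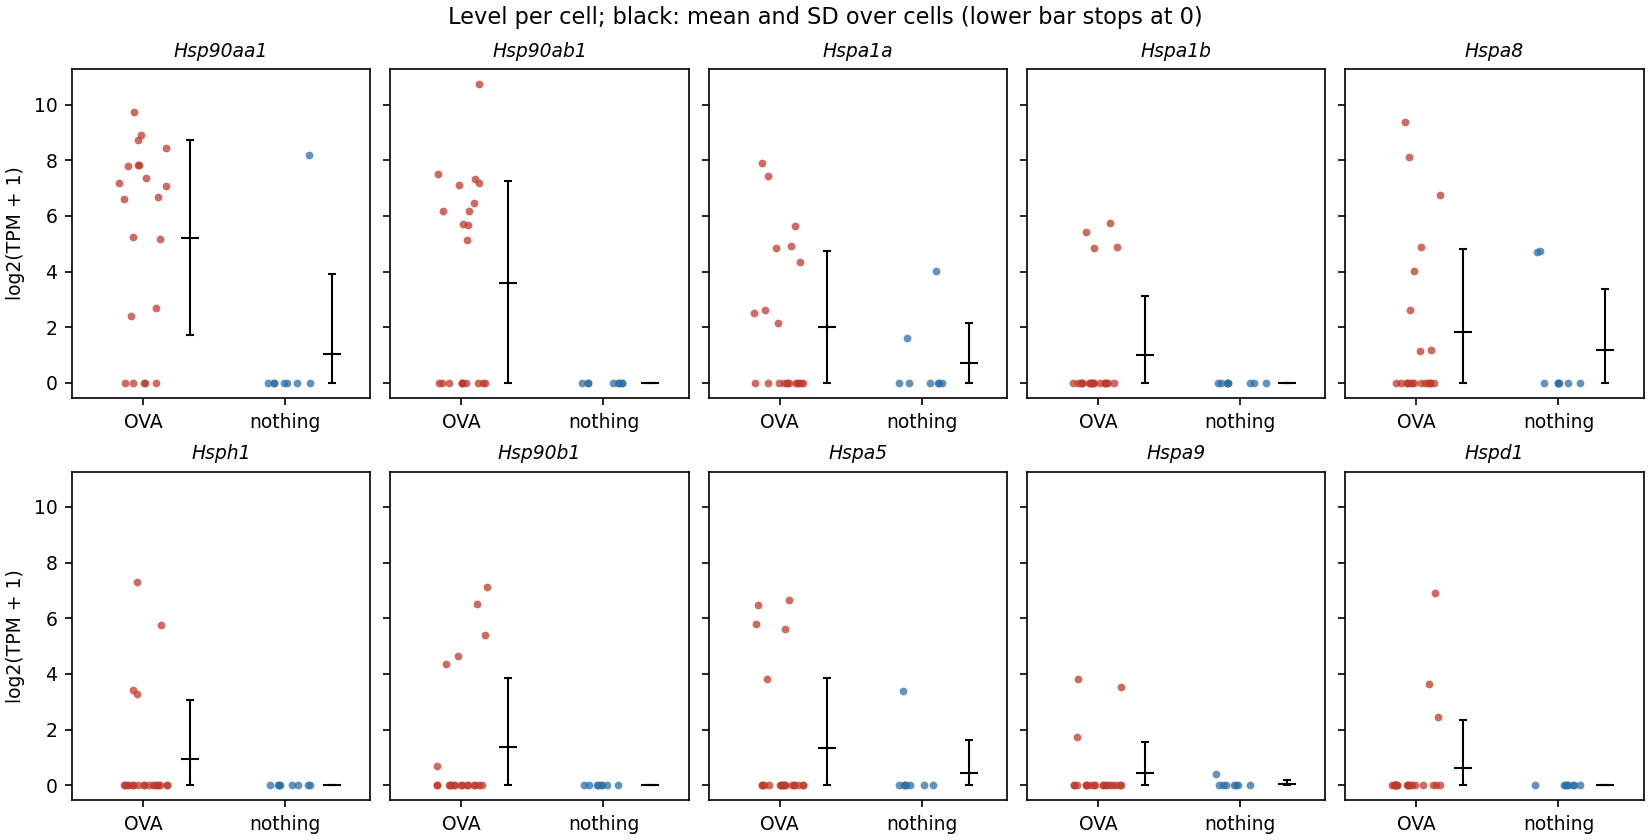
Level of each chaperone in each cell as log2(TPM + 1), OVA cells in red (n = 21) and nothing cells in blue (n = 8), with the mean and SD over cells in black. Most points of every gene except Hsp90aa1 and Hsp90ab1 lie at 0 in the OVA group.

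In the ER, Hsp90b1 (chromosome 10, 86690209 to 86705509), which chaperones integrins and Toll-like receptors, was detected in 5 OVA cells and listed at 0 in all nothing cells. It was at 137 TPM in OVA cell 13, 90.8 TPM in cell 17, 41.0 TPM in cell 5, 24.0 TPM in cell 8 and 19.5 TPM in cell 9. The difference was 1.37 with an SD over OVA cells of 2.49. Hspa5 (chromosome 2, 34771970 to 34777547), the ER HSP70 also known as BiP, was likewise detected in 5 OVA cells, from 12.9 TPM in cell 7 to 99.1 TPM in cell 16. It was at 9.38 TPM in nothing cell 4, below all 5 of those OVA cells, and its difference was 0.93 with an SD of 2.52. Only OVA cells 8 and 13 had both ER genes, and 3 OVA cells had each one alone.

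Both ER genes hold the ER stress element, the site known for the unfolded protein response, in the 250 bases before the RefSeq start. It was searched as CCAAT, any 9 bases, then CCACG, on both strands, and 0.130% of the 27025 genes (0.113% of the 32851 promoters) hold it. The windows are chr2:34772020-34772049 on the plus strand for Hspa5 and chr10:86705632-86705661 on the minus strand for Hsp90b1, with the element in capitals. The Hspa5 window lies inside the GENCODE gene, which starts further upstream.
Hspa5: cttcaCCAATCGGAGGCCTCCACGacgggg
Hsp90b1: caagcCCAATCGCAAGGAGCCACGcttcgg
Hsp90b1 holds the element once more, in reverse complement, at chr10:86705527-86705556. The genes were detected together in 2 of the 8 OVA cells that had either.

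The mitochondrial members were the least detected. Hspa9 (chromosome 18, 34937414 to 34954357), the mitochondrial HSP70 that pulls imported proteins into the matrix, was at 10.5 TPM in OVA cell 2, 12.9 TPM in cell 9 and 2.35 TPM in cell 11. In nothing cell 4 it was at 0.327 TPM, under the detection level. Its difference was 0.38. Leaving out OVA cell 2 gave 0.23, and leaving out OVA cell 9 gave 0.21. Hspd1 (chromosome 1, 55077835 to 55088243), the HSP60 chaperonin of the matrix, was at 120 TPM in OVA cell 13, 11.5 TPM in cell 8 and 4.41 TPM in cell 16, and listed at 0 in the nothing cells. Its difference was 0.62, or 0.30 without OVA cell 13. No cell had both mitochondrial genes detected.

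Within a cell, most chaperone transcripts were cytosolic. Of the members' summed TPM, 91.6% ± 11.2 fell on cytosolic forms (SD over the 19 OVA cells with any member, median 94.3%, range 65.4% to 100%). The ER forms took 7.39% ± 11.4 (median 0%, highest 34.6% in OVA cell 14) and the mitochondrial forms 1.04% ± 2.02 (highest 7.04% in OVA cell 2). The ER share was above 25% in OVA cells 7, 14 and 17, which had 2 or 3 members detected each. In the 3 nothing cells with any member the cytosolic share was 97.2% to 100%, inside the OVA range. Nothing cells 5 and 7 had 1 member detected each, a cytosolic one, which fixed their share at 100%. In order of mean log2 level in OVA cells the members ran Hsp90aa1, Hsp90ab1, Hspa1a, Hspa8, Hsp90b1, Hspa5, Hspa1b, Hsph1, Hspd1 and Hspa9, from 5.23 to 0.43. Each of the 9 neighbouring pairs in that order differed by less than 1 SD of its within-cell difference.

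**Figure D4:**
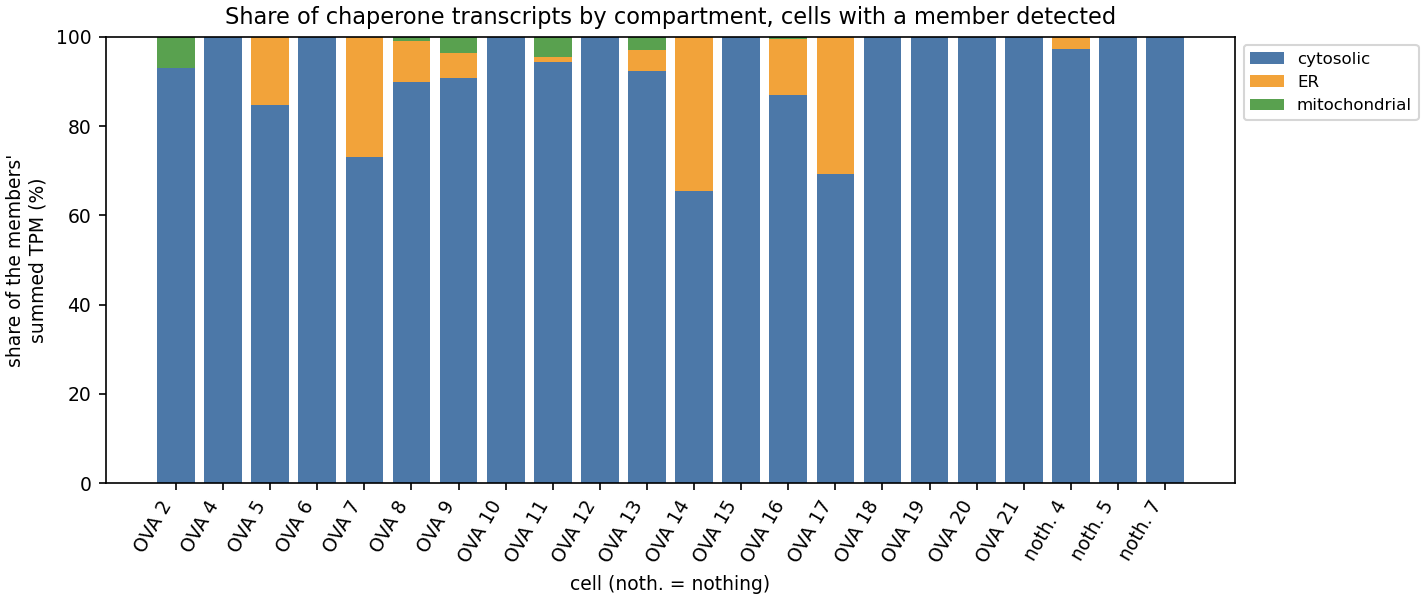
Share of the members' summed TPM, in percent, held by cytosolic (blue), ER (orange) and mitochondrial (green) forms in each of the 22 cells with a member detected. The cytosolic share is 65.4% to 100% in OVA cells and 97.2% to 100% in nothing cells 4, 5 and 7.

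Reads of a chaperone gene can be shared with near-identical copies, and this bore most on Hsp90aa1. Processed pseudogenes are copies of a spliced mRNA inserted elsewhere in the genome. Among GENCODE transcripts, 18 pseudogenes matched at least 50% of a member's coding length at 90% identity or more, and 12 were detected in some cell. Gm5844, 98.5% identical to Hsp90aa1 over all of its coding length, was detected in 16 OVA cells and 3 nothing cells. It was at 9.15 TPM in nothing cell 4, 12.7 TPM in cell 7 and 49.2 TPM in cell 8. In nothing cells 7 and 8, and in OVA cell 11 at 2.25 TPM, Hsp90aa1 itself was listed at 0. Gm12346, 99.5% identical, was detected in 9 OVA cells and in nothing cell 4. With both copies added, Hsp90aa1 was present in 17 OVA cells (81.0%, exact interval 58.1% to 94.6%) and 3 nothing cells (37.5%, 8.52% to 75.5%), and its difference went from 4.20 to 3.19. Transcripts of the gene and of its copies cannot be told apart in these values.

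Other members had copies too. Hspa8 had 11, of which 8 were detected, and with all of them added its difference was 0.82 in place of 0.64. For Hspd1, the pseudogene Gm5268, which matches 55.1% of its coding length at 90.5% identity, was at 105.5 TPM in nothing cell 4. Adding it and the 3 other copies moved the Hspd1 difference from 0.62 to -0.16. For Hsp90ab1 the copy Gm6368 was detected only in OVA cell 13, at 5.84 TPM, and the gene was detected in the same cells with it. No copy of Hsp90b1, Hspa5 or Hsph1 met the limits.

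**Figure D5:**
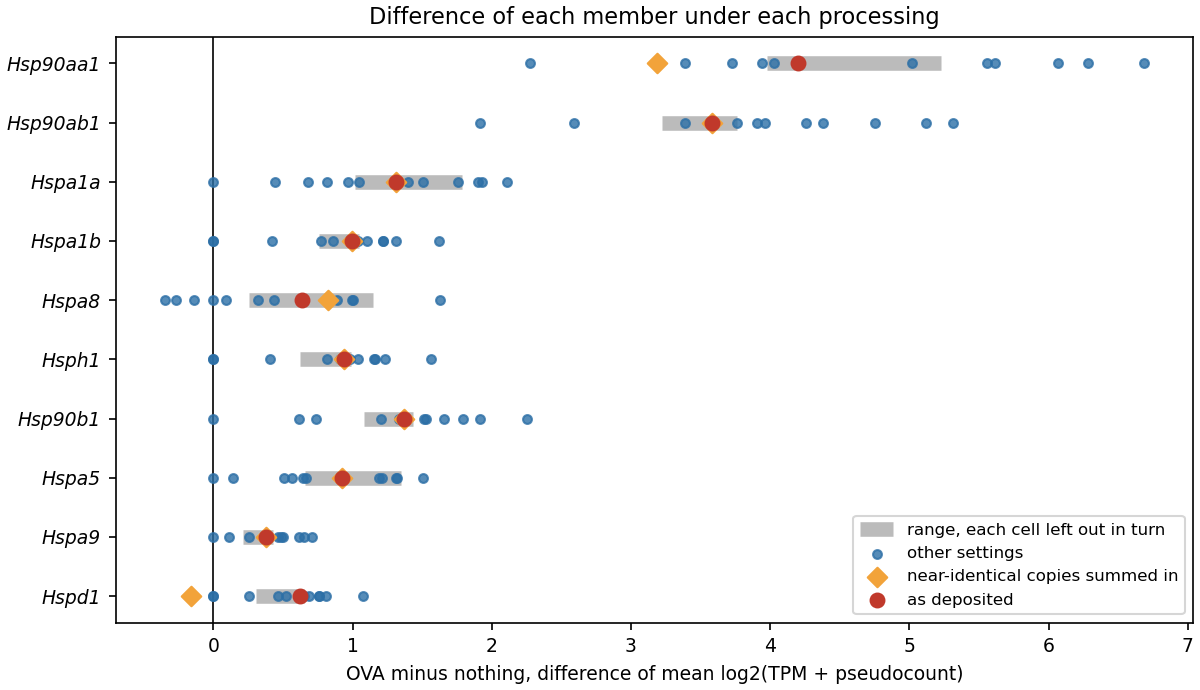
OVA minus nothing difference of each chaperone on the log2 scale as deposited (red), with near-identical copies added (orange), under the other processing settings (blue) and over the range with each cell left out in turn (grey). Hsp90aa1 and Hsp90ab1 lie above 1.9 under every setting shown, while Hspa8 and Hspd1 reach below 0.

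Values were also compared within ranges of spike-in share and of genes detected. Of the cells with at most 50% spike-ins, Hsp90aa1 was found in 6 of 6 in the OVA group and 1 of 2 in the nothing group, and Hsp90ab1 in 6 of 6 and 0 of 2. With its copies added, Hsp90aa1 was found in 2 of the 2 nothing cells. In the same cells Hspa8 was detected in 6 of 6 and 2 of 2. Above 50% spike-ins, Hsp90aa1 was found in 10 of 15 and 0 of 6, and Hsp90ab1 in 5 of 15 and 0 of 6. With its copies added, Hsp90aa1 was found in 1 of the 6 nothing cells. This part is not of like content, since it holds nothing cells 1, 2, 3 and 6. Those cells had 92 to 373 genes detected each, so a chaperone listed at 0 says little there. Among cells with 500 to 2500 genes detected, a window chosen after seeing the data, Hsp90aa1 was found in 15 of 18 cells of the OVA group and 0 of 3 of the nothing group. With its copies added these counts were 16 of 18 and 2 of 3. Hsp90ab1 was found in 10 of 18 and 0 of 3, with or without its copy. With 3 nothing cells the exact 95% interval of a share of 0 reaches 70.8%.

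As deposited, housekeeping genes lay higher in the same OVA cells by more than the chaperones, by the median over each list. Of 12 listed, 9 were detected in at least 3 cells, all 9 were higher in OVA cells and 7 of them by at least 1, with a median difference of 1.63. Of all 3717 kept genes 56.4% were higher and 9.31% by at least 1. Tubb5, B2m, Rplp0 and Ppia were detected in no nothing cell, so they met the 3-cell minimum through OVA cells alone. Among cells with 500 to 2500 genes detected the housekeeping median was 1.02 and the chaperone median 1.06. Actb, cytoskeletal actin, was found in 13 OVA cells and 1 nothing cell with a difference of 3.31, next to the 3.58 of Hsp90ab1. The translation factor Eef1a1 differed by 2.58 and the ribosomal protein gene Rplp0 by 2.51. The housekeeping median was 0.65 without OVA cells 8, 9, 13 and 16, where the chaperone median was 0.20. Those cells had the most chaperones detected, so leaving them out lowers the chaperone median by the choice of cells. The values of this setting therefore do not compare the lists. The difference between the lists was not tested. Of 15 genes of stress and tissue dissociation 10 were kept, all 10 were higher in OVA cells and 3 of them by at least 1, with a median of 0.74. Klf6, Fos, Zfp36, Ier2 and Jund were detected in no nothing cell and likewise met the minimum through OVA cells alone. The same holds for genes of the further lists below that were detected in no nothing cell. The ubiquitin gene Ubb differed by 2.09, and Zfp36, an mRNA decay factor, and Ier2, an immediate early gene, by 1.28 and 1.22. Without OVA cells 8, 9, 13 and 16 the median of the stress list was 0.18.

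The cochaperones that work with cytosolic HSP90 and HSP70 were detected in few cells each. Of 33 listed, 22 were detected in some OVA cell, 8 in some nothing cell and 11 were listed at 0 throughout. Of these genes 8 were detected in at least 3 cells, 6 higher and 2 lower in OVA cells, none by 1 or more, with a median of 0.33. Without OVA cell 13 the split was 4 and 4 and the median 0.01. Ptges3, the p23 cochaperone of HSP90, was found in 5 OVA cells and 1 nothing cell, and its difference was 0.68, which was -0.07 without OVA cells 8, 9, 13 and 16. Cdc37l1, a relative of the kinase adaptor Cdc37, was detected in 4 and 0 with 0.64. St13, which links HSP70 to HSP90, differed by -0.56, and its sign turned, to 0.33, with median-of-ratios size factors, a scaling by genes found in nearly every cell. It also turned, to 0.16, without nothing cell 7. Stip1, the adaptor that joins both chaperones, and Bag3, an exchange factor induced with HSP70, were listed at 0 in all 29 cells.

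Other folding machines gave sparse values. Of 15 further HSP70, HSP110 and small heat shock genes only Hspa4l met the minimum, at 2 OVA cells and 1 nothing cell and a difference of 0.21, or -0.03 without OVA cell 16. Of 14 genes of the TRiC chaperonin and prefoldin 3 were kept. Pfdn5 differed by 0.91, Cct3 by 0.06 and Cct7 by -0.43, which was 0.22 with size factors and 0.33 once nothing cell 4 was left out. For Cct3 the value was -0.19 without OVA cell 13. Of 5 heat shock factor genes 2 were kept and both had lower means in OVA cells, Hsf1 by -0.64 and Hsf2 by -0.26. Both signs turned with size factors, to 0.22 and 0.08, and that of Hsf2 also without nothing cell 7, to 0.30.

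In the ER list 7 of 28 genes were kept, 6 higher and 1 lower in OVA cells, 2 by at least 1, with a median of 0.53, or 0.35 without OVA cell 16. Atf4, a transcription factor of the integrated stress response, was detected in 11 OVA cells and 2 nothing cells with a difference of 1.57. Calr, the lectin chaperone calreticulin, was detected in 5 and 0 with 1.21, and Dnajc3, a partner of Hspa5, in 6 and 0 with 0.98. In the mitochondrial list 4 of 14 genes were kept, 2 higher and 2 lower, with a median of -0.21, or 0.30 without nothing cell 4. Hspe1, the HSP10 partner of Hspd1, was detected in 3 OVA cells and 0 nothing cells with a difference of 0.87. The protease genes Yme1l1 and Clpp differed by -1.13 and -0.43, with Yme1l1 at 167 TPM in nothing cell 8. The Clpp sign turned to 0.10 with size factors and to 0.08 without nothing cell 4.

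The genes whose levels followed Hsp90aa1 most closely over the 29 cells were ranked by Spearman rho among 413 protein-coding genes detected in at least 6 cells. All genes of a cell share its library and spike-in share, so rho is given as deposited and after rescaling without spike-ins. Lars2, a mitochondrial leucyl-tRNA synthetase, came first with 0.88 and 0.78. Rps18 had 0.78 and 0.62, Kmt2e 0.77 and 0.58, Oaz1 0.77 and 0.65 and Gm11808 0.74 and 0.65. For the mean of the 10 members Lars2 again came first with 0.93 and 0.71. It was followed by Kmt2e with 0.80 and 0.77, mt-Nd6 with 0.78 and 0.62, Gm20594 with 0.77 and 0.60 and Tpt1 with 0.77 and 0.73. Every one of these values was lower after rescaling. Among the members themselves in OVA cells, Hspa1b and Hsph1 had a rho of 0.99, both being detected in the same 4 cells, while Hsp90aa1 and Hspa9 had -0.07.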

How the data were processed

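TPM values of 29 single cells labelled as OT-1 T cells, 21 OVA and 8 nothing, were used as the authors deposited them, 1 column per cell, each summing to 1000000 over 54933 entries: 54838 genes, 92 ERCC spike-ins and 3 transgenes. Per the submitters' processing notes, the tools included featureCounts 1.6.4, StringTie 1.3.5 and HISAT2 2.1.0, and the builds were mm10 and GRCm38, without roles. The sources used here do not state how multiply aligned reads were counted or how much spike-in was added. Spike-ins in the total lower the TPM of every gene in a library with little cellular RNA. Of gene entries 97.3% were 0.

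Genes detected (TPM of at least 1) in at least 3 cells were kept, 3717 in all. No test was made, since the labels name no animal or culture. Intervals are exact Clopper-Pearson at 95%, and the limit of a share of 0 is 3 cells of the total. Members, lists and tests were chosen with earlier results of these data known. Named genes were the 10 members, up to 3 kept genes per pathway list with the largest absolute difference, and the 5 most similar genes by rho. Stip1 and Bag3 were named after their values were seen. Alternatives were other pseudocounts, scalings, detection levels and subsets of cells. Adding copies and the window of genes detected were choices made with the values in view. No doublet caller was run. Of 10 B cell markers 1 was detected in OVA cells and 2 in nothing cells, and of 5 NK cell markers 1 and 0. Erythroid markers summed to 0 to 1616 TPM and 0 to 558 TPM.

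Coding ends and copies came from GENCODE M21 (GRCm38), which held 54809 of the table's gene identifiers, with BLAST 2.17.0 and Biopython 1.88. Promoters came from RefSeq (GRCm38.p6). Protein sequences were not used here. Calculations used Python 3.11.15, pandas 2.3.3, NumPy 2.4.6 and SciPy 1.17.1. For simulated data, the 3717 genes were shuffled over cells and some were shifted in OVA cells. A difference of 1 was passed by 98% of 100 genes shifted by 3, 48% of 100 shifted by 1 and 3.70% of unshifted genes. Shuffling genes over cells breaks up the libraries, whereas all genes of a real cell share its library and spike-in share. These rates therefore describe the shuffled data only, and the rates for the real cells were not tested.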

Additional observations from a re-analysis of the deposited data

Results flagged for a closer look

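Nothing cell 4 stood apart from the other 7 nothing cells in 7 of 8 chaperone measures examined, each by a gap to its nearest neighbour that exceeded 0.526 of the group's range. It had Hsp90aa1 at 293 TPM, Hspa1a at 15.2 TPM, Hspa5 at 9.38 TPM and Hspa9 at 0.327 TPM. It had 4 members detected, a summed member level of 342 TPM, and Hsp90aa1 with its copies at 322 TPM. Chance flags about 1 in 20 groups, but that rate does not hold here. Any gene present in a single nothing cell, as Hsp90aa1, Hspa5 and Hspa9 were, meets this limit, since the other 7 are at 0. The 7 measures also share 1 library. This library had the most genes detected of all 29, 6385, a spike-in share of 14.8% and neutrophil markers summing to 3924 TPM. The part of these in its chaperone levels was not tested. Without it the Hsp90aa1 difference was 5.23, and Hsp90aa1 was detected in 0% of the remaining nothing cells.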

How the results depend on the processing

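Of 827 values recomputed under an alternative 819 stayed within 1 SD over cells or, for counts, within 1.5 times the count as deposited. That SD is wide: a chaperone median that goes from 0.97 to 0 (medians over cells) and an Hspd1 difference that goes from 0.62 to -0.16 (copies added) are both inside it. None of the 4 members with a difference of at least 1 changed sign. The count of members higher by at least 1 was 4 as deposited. It was 8 with a pseudocount of 0.1, 8 after rescaling without spike-ins and mitochondrial genes and 8 with size factors, and 2 with a pseudocount of 10, 2 with medians over cells and 2 without OVA cells 8, 9, 13 and 16. The same settings moved the share of all kept genes past that size from 9.31% to 28.0%, 21.2%, 18.4%, 2.45%, 3.28% and 4.14%. With each cell left out in turn the count ran from 4 to 6 (6 without nothing cell 4), and the median from 0.74 (without OVA cell 13) to 1.24 (without nothing cell 4). Leaving out OVA cells 8, 9, 13 and 16 together gave a median of 0.20. These cells were known for high chaperone levels, so this value shows only their weight.

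Rescaling without spike-ins moved the median of all kept genes from 0.10 to 0.25 and size factors moved it to 0.48, where the chaperone medians were 1.11 and 1.52. The size factors rested on 11 genes. Without libraries over 90% spike-ins, 22.9% of kept genes were lower by at least 1 and 10.9% higher, against 6.62% and 9.31% as deposited, while 5 members were higher and 0 lower. Hspa8 was -0.14 in that setting, -0.35 without cells under 500 genes and -0.27 without the 4 OVA cells. Over the 4 members detected in at least 10 cells the median was 2.45. That minimum was met mainly or only through OVA cells, so it picked members high in that group. This median describes that choice. No paired analysis was possible because the labels give no number that links a cell of 1 group to a cell of the other. Depth is unknown, and the nothing group holds 8 cells of which 4 had under 500 genes detected, so shares there are bounded only to 37.5% when listed at 0.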
